A study of Mus musculus with 8 samples.

Results

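The 36 genes described here encode the enzymes and carriers that bring pyruvate into the mitochondrion, turn the tricarboxylic acid (TCA) cycle, make itaconate from one of its intermediates, and move carbon between the cycle, glutamate and the cytosol. They were listed by symbol for these roles, with earlier results of these data known. The table of normalized counts held 18635 genes, and all 36 were in it, with *Acod1* also known as *Irg1*. The filter on low values asked for 10 normalized counts on average, which all 36 passed, and every one had at least 221 reads in each sample. They comprised 10 genes of pyruvate entry, 12 genes of the cycle itself, *Acod1*, 3 genes of cytosolic aconitase and the NADP-dependent isocitrate dehydrogenases, 4 genes that link glutamate to 2-oxoglutarate, and 6 genes that carry citrate and malate out of the matrix or use them beside the cycle.

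In the TCA cycle, acetyl-CoA condenses with oxaloacetate to citrate, which is oxidized through isocitrate, 2-oxoglutarate, succinyl-CoA, succinate, fumarate and malate back to oxaloacetate, and the electrons go to the respiratory chain. Activated macrophages are known for rewiring this cycle. ACOD1 diverts cis-aconitate to itaconate, which restrains succinate dehydrogenase, while glutamine refills the cycle as 2-oxoglutarate (αKG), a cofactor of many dioxygenases.

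Macrophages grown from mouse bone marrow with medium conditioned by L929 fibroblasts (BMDMs) were held for 24 h in medium conditioned by the mouse mesothelioma line AE17 (AE17-TCM), which makes them tumor-educated macrophages (TEMs), and their RNA was sequenced to ask what loss of PHGDH does to them. PHGDH is the first enzyme of serine synthesis from a glycolytic intermediate, and a later step of the same route turns glutamate into 2-oxoglutarate. The 4 control samples were *Phgdh* fl/fl, with both floxed *Phgdh* alleles and no Cre, and the 4 samples compared with them were *Phgdh* fl/fl *Cx3cr1*-Cre, with both floxed alleles and Cre knocked into 1 of the 2 *Cx3cr1* alleles. The mice were littermates of 6 to 8 weeks on a C57BL/6 background, and the study calls the samples biologically independent, without saying which mouse gave which sample. Cre is made only where *Cx3cr1* is active, and the presence of Cre, the loss of 1 *Cx3cr1* allele and the loss of *Phgdh* cannot be told apart by this comparison. Both groups had AE17-TCM, so the comparison holds no macrophages in plain medium.

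Each sample had between 38219563 and 47027420 reads on genes. *Phgdh* itself had normalized counts of 119, 129, 117 and 105 in the control samples and of 32.6, 35.3, 14.2 and 26.3 in the Cre samples, so all 4 Cre samples lay far below all 4 controls, with some transcript left. All 9 macrophage markers listed were in the table and their summed normalized counts ranged from 1031386 to 1122159 in the control samples and from 1009252 to 1085840 in the Cre samples, although 5 of the 9 were called lower in the Cre samples (*Adgre1*, *Itgam*, *Fcgr1*, *Cd14* and *Cx3cr1*) and none was called higher. Of 10 neutrophil markers only *S100a8* was in the table, at 467 to 575 in controls and 576 to 631 in Cre samples, called higher. The 4 dendritic cell markers, 2 lymphocyte markers and 5 fibroblast or mesothelial markers found in the table summed to at most 91.5, 23.3 and 53.5 per sample, and none of the 6 erythroid, mast cell or basophil markers was found in it. The part of these other cell types in the results below was not tested, and fewer cells of a type and less RNA per cell cannot be told apart in bulk RNA.

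*Acod1*, which makes itaconate, the pyruvate carboxylase *Pcx* and *Mpc1*, 1 of the 2 genes of the mitochondrial pyruvate carrier, rose in the Cre samples. Of the 12 genes of the cycle, 5 were called lower and 1, *Ogdh*, higher, beside 20.3% lower and 20.8% higher of all genes tested. The other carrier gene, *Mpc2*, was not called (log2 fold change −0.091 ± 0.041). In limma, with p-values adjusted by Benjamini-Hochberg over all 13629 genes tested and called at an adjusted p under 0.05, 6 of the 36 genes were higher (*Mpc1*, *Pcx*, *Acod1*, *Pdp1*, *Got1* and *Ogdh*), 9 were lower (*Suclg2*, *Pdhx*, *Idh3a*, *Mdh2*, *Glud1*, *Sucla2*, *Got2*, *Slc25a11* and *Fh1*), and 21 were not called. Thus 41.7% of the 36 genes were called, beside 41.0% of all genes tested, with 20.8% of all genes higher and 20.3% lower. The share of called genes among the 36 was close to that of all genes tested. Of the 10515 genes that averaged at least 100 normalized counts, as all 36 did, 50.2% were called when only those were tested. With that filter again 6 of the 36 were higher and 9 lower. Whether the share of the 36 differs from that of genes of such levels was not tested. Log2 fold changes are given ± SE, and normalized counts and FPKM ± SD over the 4 samples of a group. Only 4 called genes, *Mpc1*, *Pcx*, *Acod1* and *Suclg2*, had an absolute log2 fold change of at least 0.25, and the median absolute log2 fold change of the 36 genes was 0.079, against 0.12 over all genes tested. The latter include genes that averaged under 100 normalized counts, as none of the 36 did, and sizes were not compared at matched levels. The median log2 fold change of the 36 genes was −0.0092, against −0.0018 over all genes, and when the samples were scaled to their total reads both medians were higher, at 0.0059 and 0.013. The 4 control and 4 Cre samples did not overlap for 14 of the 15 called genes and for *Aco1*, which was not called, 15 of the 36 in all. Over all genes tested the groups did not overlap for 36.7%, with the Cre samples lower for 18.2% and higher for 18.4%.

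**Figure D1:**
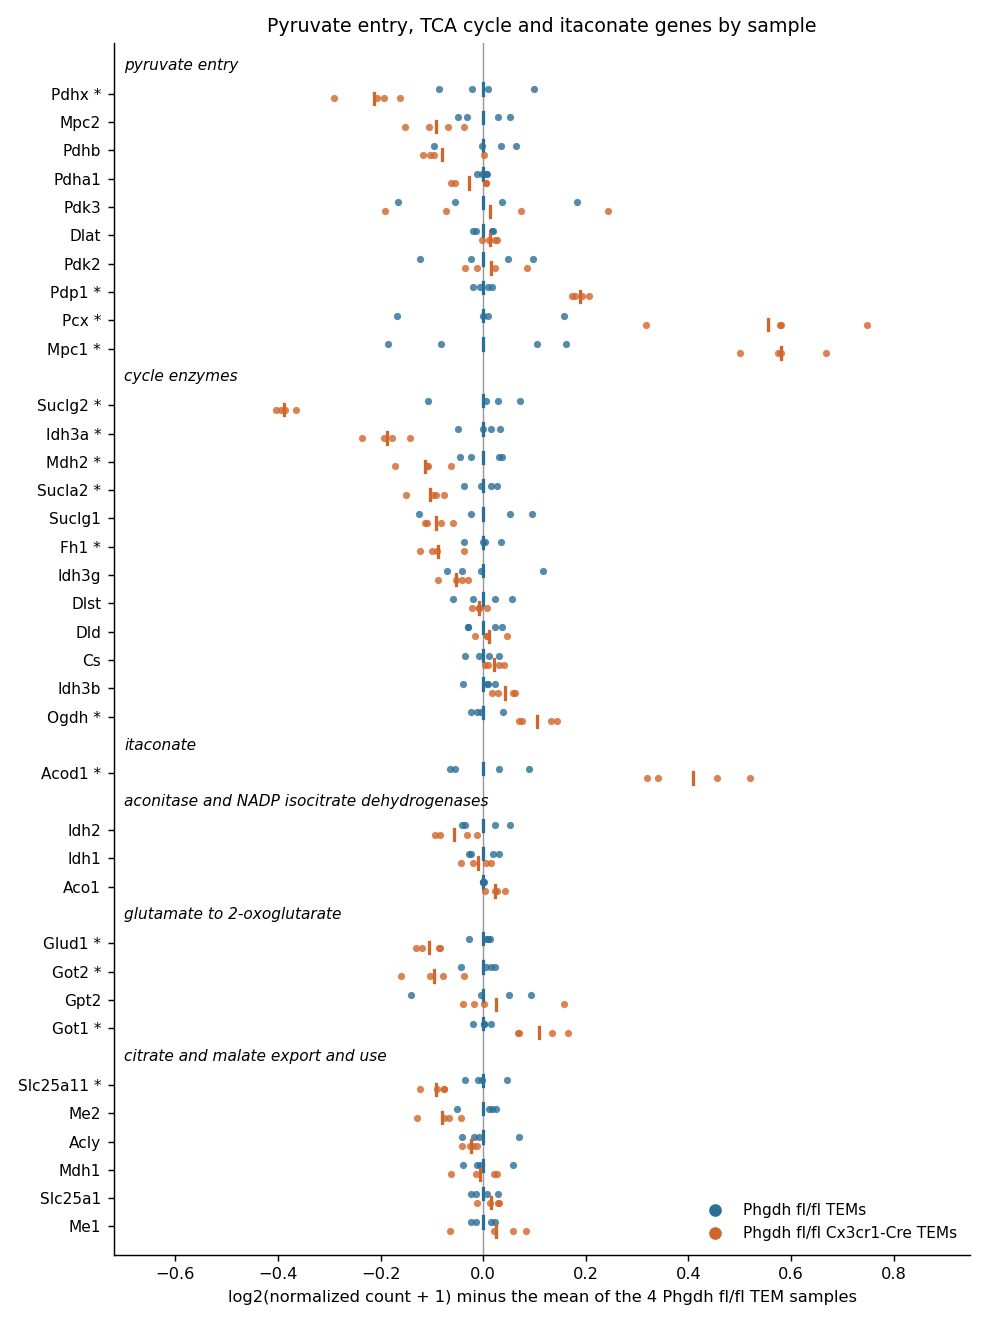
Each point is 1 sample of 1 gene, as log2(normalized count + 1) minus the mean of the 4 *Phgdh* fl/fl TEM samples (blue), and vertical ticks mark group means of 4 samples. Genes are grouped by role and sorted by their difference, and an asterisk marks those with an adjusted p under 0.05 (limma): *Mpc1*, *Pcx* and *Acod1* stand clear of the controls on the right, *Suclg2* on the left, and most of the rest lie within 0.2 of 0.

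**Figure D2:**
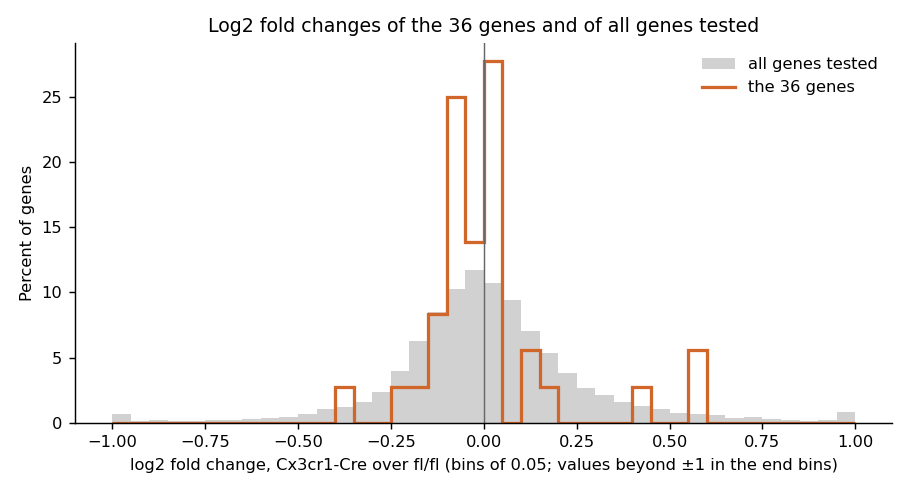
Percent of genes in each bin of log2 fold change (*Phgdh* fl/fl *Cx3cr1*-Cre over *Phgdh* fl/fl TEMs), in grey for the 13629 genes tested and in orange for the 36 genes, which crowd closer to 0 than the rest apart from *Mpc1*, *Pcx* and *Acod1* on the right and *Suclg2* on the left. The genes in grey include ones that averaged under 100 normalized counts, as none of the 36 did.

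*Acod1*, which encodes the enzyme that decarboxylates cis-aconitate to itaconate, had normalized counts of 9535, 9928, 8932 and 8993 in the 4 control samples and of 13401, 11833, 11650.3 and 12802 in the 4 Cre samples. Every Cre sample lay above every control sample. The mean rose from 9347 ± 473 to 12421 ± 825 (SD, n = 4 each), which is 32.9% higher, at a log2 fold change of 0.41 ± 0.038 (SE; limma, adjusted p = 2.52e-08). *Acod1* made up between 7.14% and 7.88% of the normalized counts of the 36 genes in control samples and between 9.26% and 10.4% in Cre samples. The other 35 genes together summed to 115397 to 116883 normalized counts in controls and to 113008 to 115363 in Cre samples. On this scale the highest Cre sum lay just below the lowest control sum, so the ranges nearly met. As a share of the reads of a sample, all 36 genes made up 0.286% to 0.291% in controls and 0.292% to 0.299% in Cre samples.

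Pyruvate enters the matrix through the mitochondrial pyruvate carrier, a heterodimer of MPC1 and MPC2, and the balance of its subunit transcripts differed between the groups. For *Mpc1* the normalized counts were 451, 468, 396 and 368 in control samples and 666, 627, 624 and 593 in Cre samples, with no overlap. Its mean rose from 421 ± 46.8 to 628 ± 29.9, a log2 fold change of 0.58 ± 0.068 (limma, adjusted p = 6.17e-07). *Mpc2* did not pass the test, at 1022 ± 34.2 and 959.6 ± 32.8 (−0.091 ± 0.041, limma, adjusted p = 0.0821). Per exon length, *Mpc1* made up 59.1% ± 3.5 of the summed *Mpc1* and *Mpc2* level in control samples and 69.7% ± 0.77 in Cre samples, and it lay between 55.1% and 62.6% in the first and between 68.9% and 70.7% in the second. These shares rest on annotated exon lengths of 2082 bases for *Mpc1* and 7344 for *Mpc2*. By normalized counts *Mpc2* was the higher of the 2 genes in both groups, so which transcript is more abundant is not settled. A processed pseudogene, *Mpc1-ps* on chromosome 12, is identical to 261 bases of the *Mpc1* transcript, and its own count also rose, from 121 ± 7.23 to 155 ± 6.85 (log2 fold change 0.37 ± 0.095, limma, adjusted p = 0.00378). Its mean equalled 26.3% of that of *Mpc1*, and reads from these 2 loci may have been split between them, so the *Mpc1* value is uncertain. On the opposite strand, 4930506C21Rik overlaps *Mpc1* at a mean count of 2.35.

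Once inside, pyruvate is either carboxylated to oxaloacetate by pyruvate carboxylase (*Pcx*), which refills the cycle, or oxidized to acetyl-CoA by the pyruvate dehydrogenase complex. *Pcx* counts were 286, 257, 228 and 259 in controls and 384, 385, 320.2 and 432 in Cre samples, again without overlap. The mean went from 258 ± 23.6 to 380.1 ± 45.8, 47.6% higher, at a log2 fold change of 0.56 ± 0.086 (limma, adjusted p = 2.01e-05). Of the complex, the structural subunit that holds its E3 component, *Pdhx*, had counts of 778, 814, 885 and 832 in controls and 722, 738, 675 and 716 in Cre samples. All Cre samples were lower, and the log2 fold change was −0.21 ± 0.048 (limma, adjusted p = 0.00110). The catalytic subunits *Pdha1* (−0.027 ± 0.025), *Pdhb* (−0.079 ± 0.036) and *Dlat* (0.014 ± 0.027) were not called, with adjusted p-values of 0.410, 0.0835 and 0.706 in limma. *Pdha1* shares 16.1% of its exon bases with *Map3k15* on the opposite strand, whose counts of 311 ± 31.0 and 315 ± 13.5 did not pass the test.

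The phosphatase that switches pyruvate dehydrogenase on, *Pdp1*, had counts of 1734, 1707, 1690.1 and 1725 in controls and 1939.8, 1979, 1960.0 and 1931 in Cre samples. These groups were tight and well apart, with a rise of 13.9% (log2 fold change 0.19 ± 0.030, limma, adjusted p = 2.94e-05). Of the kinases that switch the complex off, *Pdk2* and *Pdk3* overlapped between the groups, with log2 fold changes of 0.015 ± 0.065 and 0.013 ± 0.090. Their 95% intervals ran from −0.12 to 0.15 and from −0.17 to 0.20. Another such kinase, *Pdk1*, is not among the 36 genes and had higher counts, at 6251 ± 127 in controls. It was lower in every Cre sample (−0.26 ± 0.029, limma, adjusted p = 4.21e-07).

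**Figure D3:**
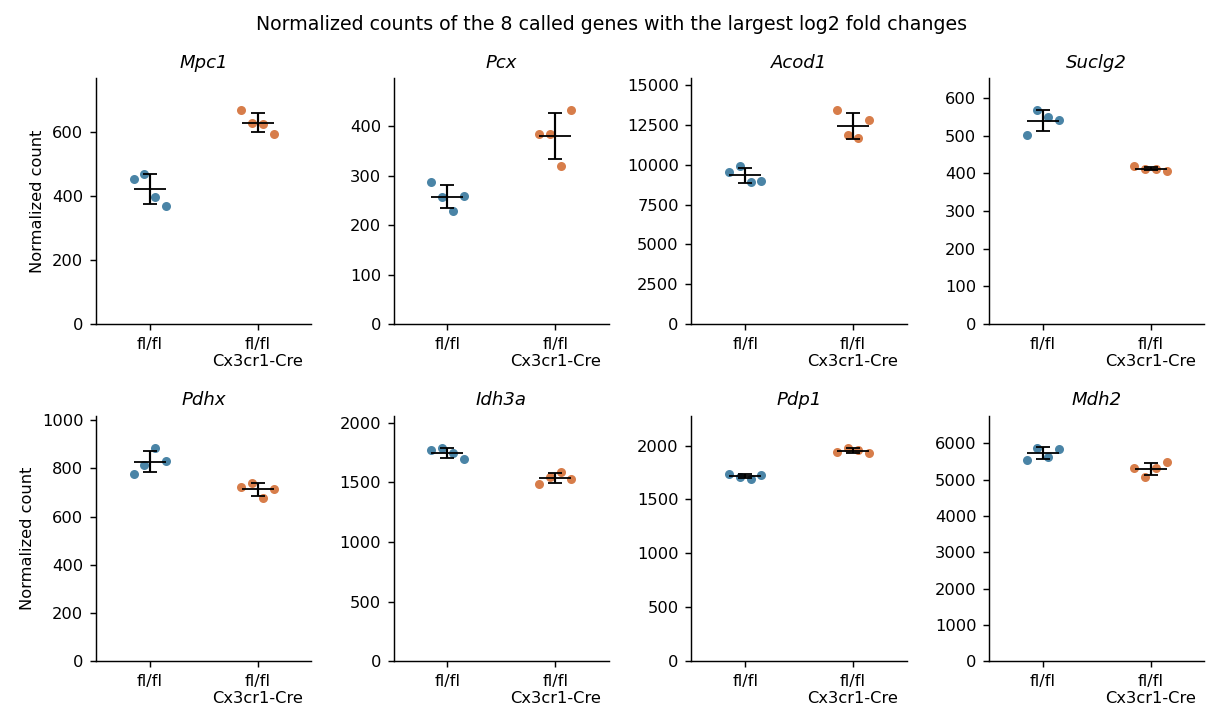
Normalized counts (axis from 0) of the 8 called genes with the largest absolute log2 fold changes. Points are the 4 samples of each group, the horizontal bar is the mean and the error bar the SD. *Mpc1*, *Pcx*, *Acod1* and *Pdp1* lie higher in all Cre samples, and *Suclg2*, *Pdhx*, *Idh3a* and *Mdh2* lower.

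Within the cycle, 5 of 12 genes were called lower and 1 higher, beside 20.3% lower and 20.8% higher of all genes tested, and the median log2 fold change of the 12 was −0.070, against −0.0018 over all genes. Succinyl-CoA ligase, which turns succinyl-CoA to succinate while forming GTP or ATP, held the largest log2 fold change of the 12. Its GTP-forming β subunit, *Suclg2*, had counts of 501, 567, 551 and 542 in controls and 419, 411, 413 and 407 in Cre samples. The Cre samples lay within a few counts of each other and all below the controls. Its mean fell from 540.2 ± 28.1 to 412 ± 4.68, a log2 fold change of −0.39 ± 0.055 (limma, adjusted p = 7.17e-06). The ATP-forming β subunit, *Sucla2*, fell as well, with 3080.0, 3153, 3221 and 3196 in the control samples and 2848, 2956, 2967 and 2999 in the Cre samples (log2 fold change −0.10 ± 0.028, limma, adjusted p = 0.00459), again with no overlap. *Suclg1*, the α subunit that both forms share, was not called (−0.091 ± 0.039, limma, adjusted p = 0.0655). Per exon length, *Suclg2* was 12.8% ± 0.46 of the 2 β subunit levels in control samples and 10.8% ± 0.33 in Cre samples, so the ATP-forming subunit dominated in both.

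The NAD-dependent isocitrate dehydrogenase, a rate-setting step that yields 2-oxoglutarate, is built of the products of *Idh3a*, *Idh3b* and *Idh3g*. The catalytic subunit *Idh3a* had counts of 1768, 1789, 1749 and 1692 in controls and 1484, 1545, 1585 and 1529 in Cre samples. It fell by 0.19 on the log2 scale without overlap (limma, adjusted p = 1.07e-04), while *Idh3b* (0.042 ± 0.024) and *Idh3g* (−0.053 ± 0.035) were not called. The next enzyme, 2-oxoglutarate dehydrogenase, went the other way in its E1 subunit: *Ogdh* counts were 7541, 7317, 7272 and 7219 in controls and 8037, 7731, 7699.8 and 8103 in Cre samples. All Cre samples were above all controls, at a log2 fold change of 0.11 ± 0.025 (limma, adjusted p = 0.00162), and its partners *Dlst* (−0.0078 ± 0.027) and *Dld* (0.011 ± 0.025) were not called.

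Late in the cycle, malate dehydrogenase of the matrix, *Mdh2*, had 5548, 5872, 5631 and 5849 in controls and 5306, 5079, 5312 and 5479 in Cre samples. The lowest control lay just above the highest Cre sample, and the log2 fold change was −0.11 ± 0.028 (limma, adjusted p = 0.00227). Fumarate hydratase, *Fh1*, was close to the threshold. Its counts were 1399, 1433, 1402 and 1362 in controls and 1314, 1285, 1362 and 1306 in Cre samples, where the lowest control (1362.4) and the highest Cre sample (1362.3) nearly met. The log2 fold change was −0.088 ± 0.035 (limma, adjusted p = 0.0490), and the call was lost in DESeq2 (adjusted p = 0.103) and when 6 of the 8 samples were left out one at a time (limma, adjusted p up to 0.137). Citrate synthase, *Cs*, at the entry of the cycle, was not called (0.021 ± 0.023, limma, adjusted p = 0.491).

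Glutamate becomes 2-oxoglutarate by deamination or by transamination. The mitochondrial glutamate dehydrogenase *Glud1* had counts of 10617, 10925, 10871 and 10899 in controls and 9887, 10219, 9963 and 10206 in Cre samples. It was lower in every Cre sample, by 0.10 on the log2 scale (SE 0.022; limma, adjusted p = 5.87e-04). The aspartate aminotransferases, which work on opposite sides of the inner membrane in the malate-aspartate shuttle, moved in opposite directions. Cytosolic *Got1* had 1897, 1868, 1914 and 1897 in controls and 2079, 1985, 1987 and 2125 in Cre samples, with all Cre samples higher (log2 fold change 0.11 ± 0.032, limma, adjusted p = 0.00835). Mitochondrial *Got2* had 2779, 2895, 2873 and 2909.8 in controls and 2710.5, 2666, 2561 and 2791 in Cre samples. The log2 fold change of *Got2* was −0.095 ± 0.030 (limma, adjusted p = 0.0159), but the highest Cre sample lay above the lowest control, and the call was lost without Cre replicate 3 (limma, adjusted p = 0.0760) and in eBayes without a mean trend (limma, adjusted p = 0.0547). The mitochondrial alanine aminotransferase *Gpt2* was not called (0.026 ± 0.059, 95% interval from −0.10 to 0.15).

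Of the 6 genes for export and use of citrate and malate, only the 2-oxoglutarate/malate carrier *Slc25a11* was called. Its counts were 3997, 4018, 3924 and 4157 in controls and 3813, 3815, 3694 and 3778 in Cre samples, lower in each Cre sample (log2 fold change −0.092 ± 0.026, limma, adjusted p = 0.00757). Its exons share 8.92% of their bases with *Rnf167* on the opposite strand, and the call was lost once a trend with GC content and length was taken off within each sample (limma, adjusted p = 0.0968). The citrate carrier *Slc25a1* (0.015 ± 0.027), ATP citrate lyase *Acly* (−0.025 ± 0.025), cytosolic malate dehydrogenase *Mdh1* (−0.0071 ± 0.026) and the malic enzymes *Me1* of the cytosol (0.025 ± 0.045) and *Me2* of the matrix (−0.079 ± 0.037) were not called. None of the 3 genes that handle citrate and isocitrate beside the cycle was called either: *Aco1*, the cytosolic aconitase (0.024 ± 0.028), and the NADP-dependent isocitrate dehydrogenases *Idh1* of the cytosol (−0.011 ± 0.023) and *Idh2* of the matrix (−0.056 ± 0.034). The *Aco1* counts of 2129, 2127, 2127 and 2129 in controls and 2191, 2134, 2168 and 2162 in Cre samples did not overlap, and the controls lay within 3 counts of each other. Their mean difference was 1.67%, which did not pass the test (limma, adjusted p = 0.530). Over the 21 genes that were not called, the 95% intervals of the log2 fold change all lay between −0.18 (*Mpc2*) and 0.20 (*Pdk3*).

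Where a reaction has an isoenzyme on each side of the mitochondrial membrane, or a complex has paired subunits, the log2 ratio of both genes within a sample was compared between the groups for 7 pairs, by an exact two-sided permutation test over the 70 labelings of 4 against 4, which can give no p below 0.0286. The pairs were chosen with earlier results of these data known, so these p-values are not independent evidence. *Mpc1* over *Mpc2* differed by 0.67 (SE 0.11), *Suclg2* over *Sucla2* by −0.28 (SE 0.038), *Got1* over *Got2* by 0.20 (SE 0.022), *Mdh1* over *Mdh2* by 0.11 (SE 0.028) and *Me1* over *Me2* by 0.10 (SE 0.020). In each of these 5 pairs the 4 Cre samples lay to 1 side of the 4 controls (exact permutation p = 0.0286 each, Benjamini-Hochberg adjusted p = 0.0400 over the 7 pairs). How often the ratios of other gene pairs separate in this way was not tested. Taken singly, 36.7% of all genes tested had groups that did not overlap. In the 3 pairs split between cytosol and matrix that passed the test, the matrix enzyme was thus lower relative to its cytosolic partner in the Cre samples. For *Me1* over *Me2* the exact permutation p was 0.0571 without control replicate 1. *Idh1* over *Idh2* differed by 0.045 (SE 0.049, exact permutation p = 0.4) and *Pdk2* over *Pdk3* by 0.0022 (SE 0.12, exact permutation p = 1), with overlapping groups in both.

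**Figure D4:**
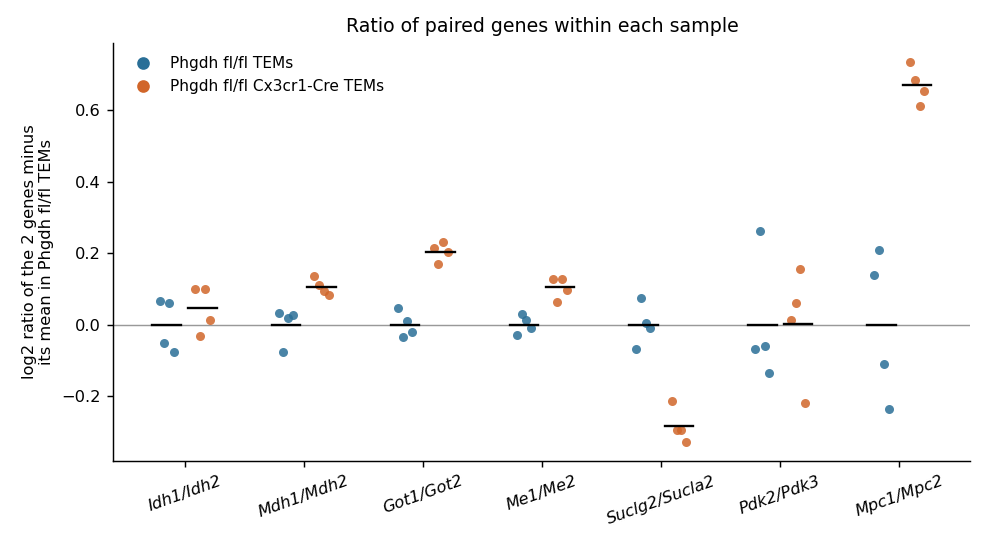
Each point is the log2 ratio of 2 genes in 1 sample minus the mean ratio of the 4 *Phgdh* fl/fl TEM samples, and bars are group means of 4 samples. The ratio of *Mpc1* to *Mpc2* is higher and that of *Suclg2* to *Sucla2* lower in all Cre samples, *Mdh1*/*Mdh2*, *Got1*/*Got2* and *Me1*/*Me2* are slightly higher, and the groups overlap for *Idh1*/*Idh2* and *Pdk2*/*Pdk3*.

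Levels were set side by side per exon length, as FPKM (reads scaled by exon length and by the depth of the sample). In control TEMs the 36 genes ranged from 1.25 ± 0.12 FPKM for *Pcx* to 82.2 ± 4.3 for *Acod1* (SD, n = 4). *Idh1* (71.1 ± 1.5) and *Mdh1* (67.0 ± 1.9), both cytosolic, and *Glud1* (59.4 ± 0.73) came next. The 12 genes of the cycle were spread over the order, with *Cs* at 37.2 ± 0.78, *Mdh2* at 37.1 ± 1.0, *Idh3b* at 35.4 ± 0.65, *Ogdh* at 31.0 ± 0.64 and *Fh1* at 9.52 ± 0.21, and neighbours such as *Cs* and *Mdh2* did not differ beyond their spread. *Idh3a* stood at only 7.96 ± 0.20, below its partners *Idh3b* and *Idh3g* (21.1 ± 1.2). In Cre TEMs *Acod1* reached 110.4 ± 7.1 FPKM and *Pcx* 1.86 ± 0.22, so *Acod1* kept the top of the order, and *Pcx* the bottom, in spite of their rise. *Mpc1* went from 4.67 ± 0.53 to 7.03 ± 0.33 and *Suclg2* from 2.70 ± 0.14 to 2.08 ± 0.022. A long annotated exon union lowers FPKM, so levels of genes with many alternative exons may be understated.

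**Figure D5:**
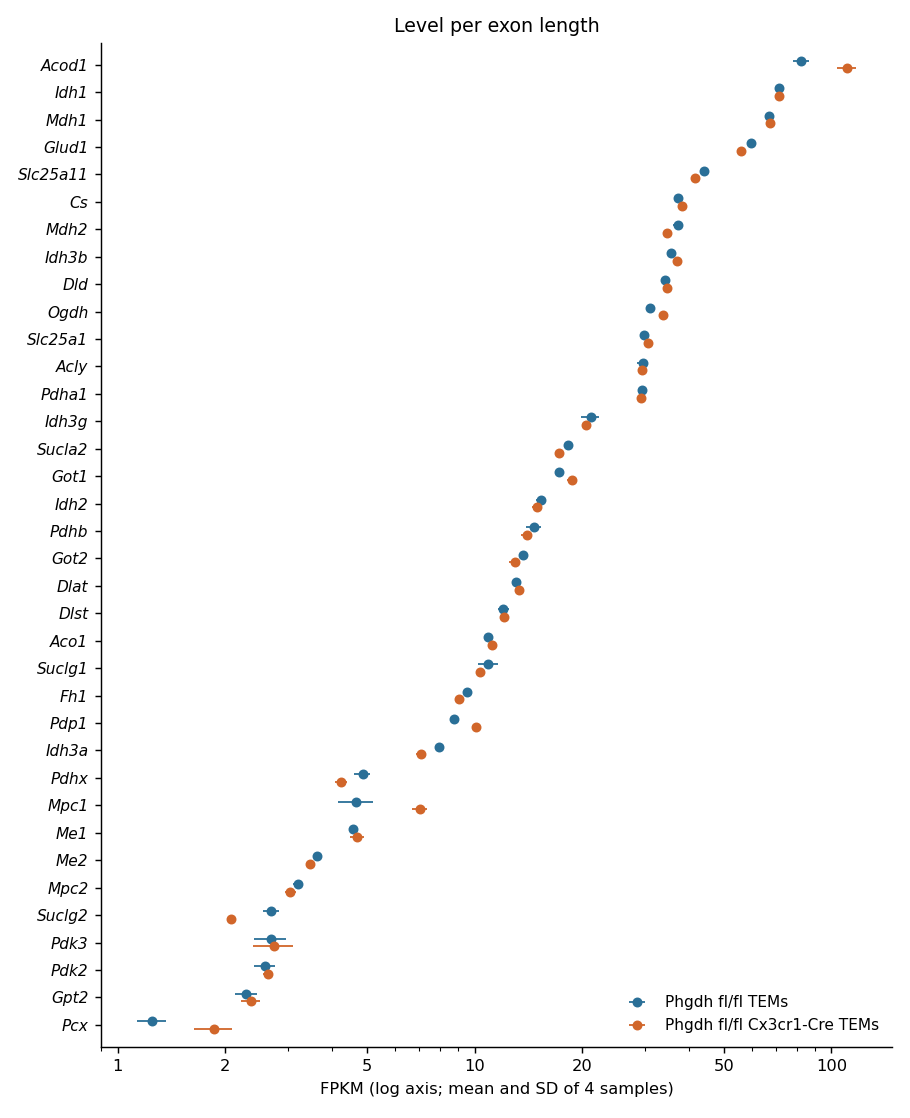
FPKM on a log axis for each of the 36 genes, sorted by the level in *Phgdh* fl/fl TEMs (blue) beside *Phgdh* fl/fl *Cx3cr1*-Cre TEMs (orange); points are means of 4 samples and lines the SD. *Acod1* heads the order in both groups and *Pcx* closes it.

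Among 61 other genes of the same pathways, 53 were in the table and 47 were tested, and 12 of these were lower and 5 higher in Cre TEMs, which is 36.2% called beside 41.0% of all genes tested. Around pyruvate dehydrogenase, the kinase *Pdk1* fell from 6251 ± 127 to 5233 ± 233 (log2 fold change −0.26 ± 0.029) and the phosphatase regulator *Pdpr* rose from 804 ± 137 to 1097 ± 61.3 (0.46 ± 0.076). *Gcsh*, the lipoyl carrier of the glycine cleavage system, fell most, from 2038 ± 74.2 to 1554 ± 36.5 (−0.39 ± 0.034, limma, adjusted p = 9.32e-09), and the iron-sulfur cluster protein *Glrx5* fell by 0.14 on the log2 scale. The acetyl-CoA synthetases rose, *Acss2* from 1162 ± 43.4 to 1611 ± 43.8 (0.47 ± 0.037, limma, adjusted p = 2.04e-09) and *Acss1* from a mean of 155 to 188 (0.28 ± 0.092).

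On the glutamine side, glutamine synthetase *Glul* (−0.19 ± 0.022), the proline route enzyme *Aldh18a1* (−0.21 ± 0.043) and the phosphoserine aminotransferase *Psat1* (−0.20 ± 0.065), which makes 2-oxoglutarate from glutamate in serine synthesis, were called lower. The groups overlapped for *Psat1*, at 412 to 492 in controls and 389 to 430 in Cre samples. By qPCR, the study saw no obvious change of *Psat1* with *Phgdh* loss in BMDMs given IL-4 or LPS, nor in macrophages sorted from tumors. Of the carriers, the lactate exporter *Slc16a3* (−0.23 ± 0.026), the aspartate/glutamate carrier *Slc25a13* (−0.22 ± 0.032) and the dicarboxylate importer *Slc13a3* (−0.17 ± 0.037) fell. *Clybl*, an enzyme of the mitochondrial breakdown of citramalyl-CoA on the route that degrades itaconate, also fell (−0.19 ± 0.060). Succinate dehydrogenase, the enzyme itaconate inhibits, had 1 of its 4 subunits lower, *Sdhc* (−0.16 ± 0.024, limma, adjusted p = 2.09e-05), and 1 higher, *Sdhd* (0.13 ± 0.027, limma, adjusted p = 4.82e-04), the latter named after its value was seen. All log2 fold changes of this and the preceding paragraph are of genes with an adjusted p under 0.05 in limma, between 0.0264 for *Glrx5* and 2.04e-09 for *Acss2*. Among them the groups overlapped for *Psat1*, *Slc13a3*, *Clybl* and *Glrx5*.

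The stretches of 250 bases before the start sites of 4 genes are shown, picked as the called genes with an absolute log2 fold change of at least 0.25. They are RefSeq sequences of build GRCm38.p6, written 5′ to 3′ on the strand of the gene, and capitals mark matches to 9 short motifs searched on both strands. The *Acod1* window lies at chr14:103046762-103047011 (plus strand), the *Mpc1* window at chr17:8283537-8283786 (plus strand, the first of 2 starts), the *Pcx* window at chr19:4510222-4510471 (plus strand, the first of 2 starts) and the *Suclg2* window at chr6:95718847-95719096 (minus strand). In the GENCODE M21 annotation the last 35 bases of the *Acod1* window and the last 25 of the *Mpc1* window already belong to a first exon, and the other windows hold no exon.
Acod1: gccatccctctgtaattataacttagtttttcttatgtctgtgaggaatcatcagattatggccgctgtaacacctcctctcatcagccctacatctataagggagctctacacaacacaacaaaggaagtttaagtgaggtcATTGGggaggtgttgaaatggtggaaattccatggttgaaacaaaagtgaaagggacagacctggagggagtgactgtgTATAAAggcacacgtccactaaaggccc
Mpc1: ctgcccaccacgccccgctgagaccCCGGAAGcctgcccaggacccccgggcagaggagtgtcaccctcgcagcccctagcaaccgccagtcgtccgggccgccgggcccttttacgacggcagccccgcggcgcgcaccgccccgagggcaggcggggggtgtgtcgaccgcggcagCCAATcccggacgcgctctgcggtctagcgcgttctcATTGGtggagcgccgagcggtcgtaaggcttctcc
Pcx: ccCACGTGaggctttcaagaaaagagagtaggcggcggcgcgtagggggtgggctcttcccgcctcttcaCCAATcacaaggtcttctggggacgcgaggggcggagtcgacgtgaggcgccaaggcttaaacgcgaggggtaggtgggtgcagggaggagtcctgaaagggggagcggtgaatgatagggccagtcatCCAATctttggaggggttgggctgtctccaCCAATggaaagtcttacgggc
Suclg2: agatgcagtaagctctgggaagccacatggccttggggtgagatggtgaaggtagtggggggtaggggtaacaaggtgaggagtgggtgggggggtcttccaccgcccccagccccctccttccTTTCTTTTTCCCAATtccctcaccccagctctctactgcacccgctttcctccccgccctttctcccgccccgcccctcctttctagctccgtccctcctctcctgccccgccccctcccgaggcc
Only the *Acod1* window holds TATAAA, 28 to 23 bases before its start, and it is also the poorest in G and C, at 44.4%, against 73.6% for *Mpc1*, 60.8% for *Pcx* and 64.4% for *Suclg2*. It also holds a CCAAT box on the opposite strand, read as ATTGG, 107 to 103 bases before the start. The *Mpc1* window carries CCAAT on each strand and CCGGAAG once, the *Pcx* window carries CCAAT in 3 places and the E-box CACGTG once, and in the *Suclg2* window the complement of an interferon-stimulated response element (ISRE) pair of GAAA repeats adjoins a CCAAT.

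Promoters in the RefSeq table matched 33 of the 36 genes by symbol, with *Idh3a*, *Pdp1* and *Me2* unmatched, and a gene was counted once if the window before any of its starts held the motif, among the 33 genes and among all 27025 genes of the table. CCAAT was found for 20 of the 33 genes (60.6%) and for 37.5% of all genes. Counted by window it was in 53.5% of the 43 windows of these genes and in 33.8% of all 32851 windows. The 27025 genes were not limited to genes tested in these data, so shares among expressed genes are not known here. TATAAA was found for 2, *Acod1* and *Got2* (6.06%), and for 14.3% of all genes. CACGTG was found for *Ogdh*, *Pcx*, *Pdk2* and *Slc25a1* and for 6.86% of all genes, CCGGAAG for *Glud1*, *Idh3g* and *Mpc1* and for 7.83%, and TGACGTCA for *Mdh2* and *Ogdh* and for 1.77%. The remaining motifs were each found for 1 of the 33 genes: the NRF1 motif for *Sucla2* (4.23% of all genes), the ISRE pair for *Suclg2* (3.46%), an NF-κB motif for *Dlat* (1.65%) and TGATGNAA for *Got1* (3.91%). A match is a run of letters only and was not tested for binding.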

How the data were processed

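Total RNA of 8 samples was sequenced from directional libraries. As the submitters' processing notes and the methods state, the authors mapped the reads to mouse mm10 with TopHat2, counted them per gene with HTSeq 0.6 and compared the genotypes with DESeq2. The methods name FPKM, but per sample the authors deposited a signal, the read counts scaled by 1 size factor for each library: with the recovered factors, 100% of 144353 values above 0 lay within 0.01 of a whole read. The deposited mean column is a mean of these sample columns. The authors' deposited log2 fold changes, their standard errors, Wald scores and p-values were not used. The strand setting of the counting is not given in the sources used here.

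For the comparison, limma 3.58.1 (R 4.3.3; two-sided, eBayes with trend, no covariate) was fitted to log2(normalized count + 1) of every gene that averaged 10 or more normalized counts, and p-values were adjusted by Benjamini-Hochberg. A log2 fold change on this scale understates the change of low genes. P-values measure the spread between these samples. Alternatives were another pseudocount, other filters, quantile normalization, scaling to total reads, eBayes without trend, edgeR 4.0.16 and DESeq2 1.42.0 on the recovered counts, a replicate block, removal of a GC and length trend, and leaving out each sample. FPKM were computed from recovered reads and GENCODE M21 exon unions, which named 18629 of 18635 genes; near-identical copies were sought with BLAST+ 2.17.0. Scripts were tested on simulated data. The genes, pairs and lists were chosen with earlier results of these data known. Full values are given for genes with an absolute log2 fold change of at least 0.25, or called with groups that did not overlap. At most 15 called genes of the wider pathway list were named, by size. One gene of that list is counted but not reported here.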

Additional observations from a re-analysis of the deposited data

Results flagged for a closer look

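One value stood apart within its group of 4. *Pdhb*, a catalytic subunit of pyruvate dehydrogenase, had a normalized count of 2448 in *Phgdh* fl/fl *Cx3cr1*-Cre replicate 1, whereas the other 3 samples of that group lay between 2255 and 2287. The gap between that sample and its nearest neighbour, as a share of the range of the group, was 0.832, just above Dixon's 95% critical value for 4 samples. In all, 72 groups of 4 values were examined, and chance flags about 1 in 20 of them. Without that sample the log2 fold change of *Pdhb* was −0.11, with an adjusted p of 0.0282 in limma.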

How the results depend on the processing

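Among the 36 genes 6 were called higher under every alternative run, and 8 to 13 were called lower. On the recovered reads, edgeR called 5608 of all genes tested and DESeq2 5066, against 5594 in limma. With a GC and length trend removed, *Slc25a11* lost its call and *Mpc2* (−0.17), *Pdhb* (−0.094), *Dlst* (−0.087), *Suclg1* (−0.11) and *Me2* (−0.15) gained one, which makes 13 lower. *Fh1* lost its call without a filter (adjusted p = 0.0670, limma), under quantile normalization (0.0876), under scaling to total reads (0.105), in DESeq2 (0.103) and with the replicate block (0.0638). Without control replicate 1, *Pdhb* and *Suclg1* were called lower (limma, adjusted p = 0.00718 and 0.00192). The median log2 fold change over all genes tested, −0.0018 in the reported fit, itself moved to −0.012 under quantile normalization, 0.013 under scaling to total reads and −0.022 with the GC and length trend removed. Genes near 0 that were not called changed sign under the same settings: under quantile normalization *Pdk3* (−0.0070) and *Dld* (−0.015), under scaling to total reads *Dlst* (0.0073), *Idh1* (0.0045) and *Mdh1* (0.0080), and with the GC and length trend removed, with or without the replicate block, *Dlat* (−0.013), *Cs* (−0.011), *Dld* (−0.0013) and *Mdh1* (0.0084). The median log2 fold change of the 36 genes was −0.025 under quantile normalization and 0.0059 under scaling to total reads, beside those medians of all genes.

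Leaving out 1 sample at a time gave ranges of −0.026 to 0.048 for *Pdk2*, −0.064 to 0.081 for *Pdk3*, −0.00074 to 0.023 for *Dld*, −0.027 to 0.011 for *Dlst*, −0.021 to 0.057 for *Gpt2*, −0.019 to 0.00058 for *Idh1* and −0.020 to 0.013 for *Mdh1*, none of them called. The median of the 36 genes ranged from −0.024 to −0.0014, the log2 ratio difference of *Pdk2* to *Pdk3* from −0.049 to 0.090 and that of *Me1* to *Me2* from 0.094 to 0.12.

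Samples of the same replicate number correlated weakly and positively in their deviations from the group means (0.0628, 0.0977, 0.126 and 0.0776), but not each above 0.1, and no label states what a number marks. Control replicates 2, 3 and 4 correlated best with the Cre sample of their own number, and control replicate 1 with Cre replicate 4 (0.135). With the number as a replicate block, 41.1% of all genes tested were called, and the ratio differences of 0.11 for *Mdh1*/*Mdh2*, 0.20 for *Got1*/*Got2*, 0.10 for *Me1*/*Me2*, −0.28 for *Suclg2*/*Sucla2* and 0.67 for *Mpc1*/*Mpc2* each had an exact sign-flip p of 0.125, the smallest that 4 pairs can give.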
